A study of Danio rerio with 12 samples.

Results

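The genes described here encode the nuclear subunits of the mitochondrial respiratory chain and the ATP synthase, measured in zebrafish gills with and without exposure to metal oxide nanoparticles. They were chosen by name: probes whose RefSeq accession maps to a symbol beginning with ndufa, ndufb, ndufc, ndufs, ndufv, sdha to sdhd, uqcr, cyc1, cox4 to cox8 or atp5, with the probe reading well above background on the whole set of 3 arrays in some group. Of 110 such symbols in the RefSeq annotation, 90 were matched on the array, and all 90 met the rule, out of 13443 genes named on the array. Of these, 89 were tested among 12616 genes in all, and atp5mc3a was not, because outlier spots left too few values in the ZnO group. The tested members comprise 35 genes of complex I, 5 of complex II, 8 of complex III, 17 of complex IV, 17 of complex V and 7 assembly factors that the symbols also take in. The genes ndufa4a and ndufa4b are counted with complex IV, where the mammalian protein is known to sit.

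The respiratory chain lies in the inner mitochondrial membrane. Complex I takes electrons from NADH and complex II from succinate, both hand them to ubiquinone, and complexes III and IV pass them on to oxygen, with complexes I, III and IV pumping protons. The ATP synthase, complex V, lets the protons return and makes ATP. In the fish gill this ATP drives ion uptake, above all in ionocytes, cells packed with mitochondria. Complex II is wholly encoded in the nucleus, whereas the others also contain subunits encoded in mitochondrial DNA, of which 0 of 13 were tested here.

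Each of the 12 samples was total RNA from the pooled gills of 10 adult fish (Danio rerio), with 3 pools per group, hybridised to a one-colour Agilent array. Control fish were untreated, and the other groups spent 96 h without food in water with nanoparticles of CuO at 0.2 mg/L, ZnO at 4.8 mg/L or NiO at 17.5 mg/L, doses set from each particle's own median lethal concentration. The treatment text gives the fasting for the exposed fish, and the age, sex and strain of the fish were not given in the sources used here. Levels are log2 processed signals after subtracting the array's own 75th percentile. They can be compared between arrays for a probe but not between probes. A gene is said to have risen or fallen where the Benjamini-Hochberg adjusted p of limma, over all 12616 genes, was under 0.05.

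Which pool each array measured is in doubt. The groups used here follow the scanner file listed for each sample, but in a deposited table of the same arrays 10 of 12 columns hold the array of another sample, and the sources used here do not settle which is right. Every group difference below rests on that choice: by the table's column names 0 members and 0 of all genes were called by limma in any comparison, and 0 members passed at an unadjusted p under 0.05.

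Several arrays stood apart from their group. Between 75.5% and 88.4% of spots lay well above background, with 0 saturated, and the array's 75th percentile ran from 1390 to 3319. The labelled tissue was checked against markers: the gill epithelium list had a median level of 2.76 to 3.32 in controls and 3.39 to 4.25 in exposed pools, and the ionocyte list -2.93 to -1.83 in controls and -3.35 to 0.93 in exposed pools. All 20 oocyte markers tested were well above background on at least 1 control array, and their log2 summed level was 8.13 to 8.48 in controls. It was 0.87 to 1.71 in the CuO pools, 0.37 to 0.79 in the ZnO pools and 0.52 to 7.23 in the NiO pools, where NiO 1 held the highest value. Of the 20, the number below the background threshold throughout a group was 1 for CuO, 3 for ZnO and 0 for NiO. Control 3, CuO 3, ZnO 1 and NiO 2 had medians of -5.29 to -5.04 over 29 eye markers, against 0.43 to 2.47 on the other arrays. The median of 27 liver and pancreas markers was 3.30 to 4.64 in controls and 2.88 to 4.89 in the exposed pools other than ZnO 1. On ZnO 1 it was low, at -2.21. Transcripts of this list were thus high in nearly all pools, and their part in the differences below was not tested. Under ZnO the list differed from control by a median of -2.03, with 3 genes called lower. The oocyte transcripts thus divide the controls and NiO 1 from the other 8 arrays, and their part in the differences below was not tested. In whole gill, fewer cells of a type and less RNA per cell cannot be told apart.

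All but 9 of the 89 respiratory chain genes failed the test in every exposure, and most of those that passed were higher in exposed gills. Under CuO 8 of 89 members passed, 6 higher and 2 lower (8.99%), against 25.1% of all genes, 11.4% higher and 13.7% lower. Under ZnO 8 passed, 7 higher and 1 lower, against 25.7% of all genes, 13.8% higher and 11.9% lower. Under NiO 7 passed, 6 higher and 1 lower (7.87%), against 22.2% of all genes, 10.1% higher and 12.1% lower. Of the 9 members called, 6 were called in all 3 comparisons, which share the same 3 control arrays. Without adjustment, at p under 0.05, 16, 14 and 16 members passed, against 40.2%, 39.3% and 36.6% of all genes. Each called member of complexes I, II and V was higher in the exposed gills, and each member called lower was an assembly factor. Those called higher include ndufa12, which met the filter through the exposed groups alone. With probes required to be well above background on all arrays it was not tested. Then 6, 7 and 7 of 87 members were called, 4, 6 and 6 of them higher. Of 11121 genes, 3006, 3076 and 2661 were called.

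These counts, and those over all genes, rest on few arrays. The ZnO count was 3 without ZnO 2, 3 without control 1 and 5 without control 3. In those fits 1882, 2058 and 1545 of all genes were called, instead of 3241. The NiO count was 3 without NiO 2, without NiO 3, without control 1 or without control 3. All genes called then numbered 1724, 1469, 1732 and 961, instead of 2805. Without NiO 1, the exposed array with oocyte transcripts, 7 members and 2343 of all genes were called. The oocyte transcripts then divide the controls from all NiO pools left, and their part was not tested. Leaving out the 4 arrays low in eye transcripts gave 9, 4 and 0 members under CuO, ZnO and NiO. Of all 12616 genes, 2692, 1927 and 5 were then called.

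Across all members the median difference from control was 0.16 under CuO, 0.31 under ZnO and 0.25 under NiO, beside 0.42, 0.32 and 0.27 over all genes tested, and after centring on ribosomal protein genes the members' medians were -0.13, 0.02 and 0.09. The exposed arrays lay wholly above the controls for 29 members under CuO, 30 under ZnO and 18 under NiO, where 27.4%, 25.6% and 22.9% of all genes did so. They lay wholly below for 2 members in each exposure, where 20.8%, 17.2% and 19.7% of all genes did. The members' median SD between replicate pools was 0.25, against 0.52 over all genes tested and 0.22 for 79 cytosolic ribosomal protein genes. Each gene is represented by its brightest tested probe, and further probes of some members varied more, as given below.

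**Figure D1:**
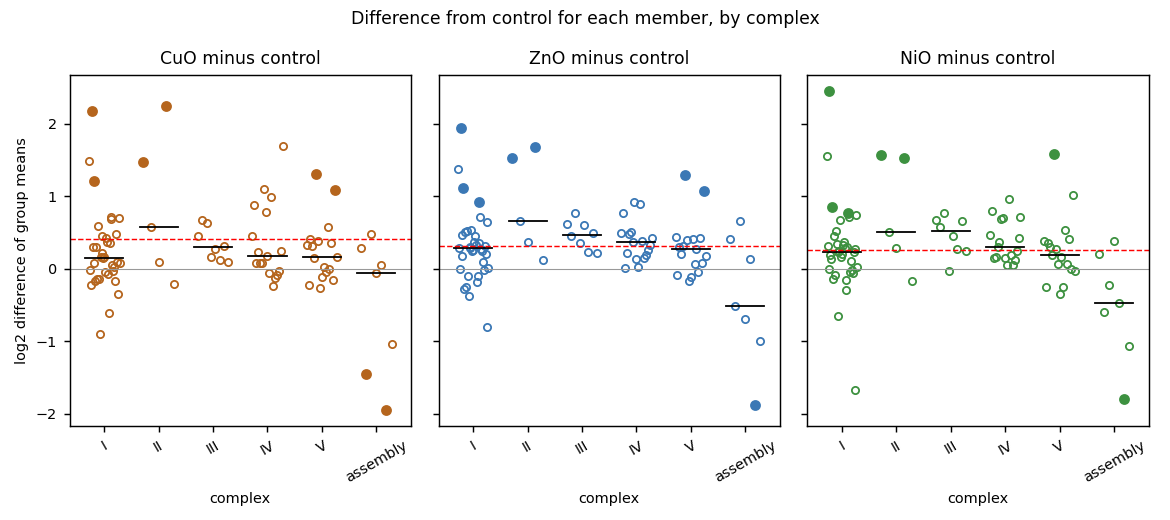
Log2 difference of group means, exposed minus control, for each of the 89 members, in columns by complex, with 1 panel per exposure. Filled points passed the test, black bars are the medians of each complex, the red dashed line is the median of all genes tested and the grey line is no difference. Most members lie between the grey line and 1, a few filled points of complexes I, II and V lie above 0.7, and the filled points below -1 are assembly factors.

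In complex II, succinate dehydrogenase, 2 of 5 genes rose in each exposure and 0 fell, where 11.4%, 13.8% and 10.1% of all genes rose under CuO, ZnO and NiO. Under NiO 1 rose with quantile normalization or normexp background. Under NiO 0 rose without the 4 arrays low in eye transcripts, or without control 1, CuO 3, ZnO 1 and NiO 2. Under ZnO 1 rose without the arrays low in eye transcripts or with ZnO and control fitted alone, and 3 with normexp background. The CuO number stayed 2 in these settings. The gene sdha encodes the flavoprotein subunit that oxidises succinate in the citric acid cycle. Its level was 1.39, 1.86 and 0.84 in the 3 controls, 2.96, 2.74 and 2.81 under CuO, 2.89, 3.12 and 2.67 under ZnO, and 2.73, 3.17 and 2.90 under NiO. All 9 exposed pools lay above all 3 controls, and the controls were the more scattered group (SD 0.51, against 0.11 to 0.22). The difference was 1.47 under CuO, 1.53 under ZnO and 1.57 under NiO (SE 0.30), or 2.77-fold, 2.88-fold and 2.96-fold, with limma adjusted p of 0.0067, 0.0065 and 0.0078. The call held with each of the 12 arrays left out in turn. A further sdha probe differed in the same direction by 1.08, 1.13 and 1.53, with adjusted p of 0.14, 0.13 and 0.055 over all probes.

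The gene sdhda, a paralog of the small membrane anchor through which complex II meets ubiquinone, rose as well. Its level was -4.20, -3.22 and -3.65 in controls and -1.49, -1.15 and -1.68 under CuO. Under ZnO it was -2.87, -1.37 and -1.79, and under NiO -2.30, -2.07 and -2.12. The exposed values again lay above every control, with ZnO 1 the lowest of them. The differences were 2.25, 1.68 and 1.53 (SE 0.40, limma adjusted p 0.0040, 0.014 and 0.023), and the other sdhda probe was called in each exposure too, at 2.15, 1.47 and 1.36. The ZnO call was lost without ZnO 2 or control 1, and the NiO call without NiO 2, NiO 3, control 1 or control 3. Fitting ZnO and control alone also ended the ZnO call, and normexp background or quantile normalization the NiO call.

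Its paralog sdhdb did not pass the test. The level of sdhdb was 2.40 ± 0.27 in controls and 2.19 ± 0.14, 2.53 ± 0.04 and 2.23 ± 0.06 in the CuO, ZnO and NiO pools (SD, n = 3), and the 95% intervals of its differences were -0.72 to 0.29, -0.38 to 0.63 and -0.68 to 0.33. The iron-sulfur subunit sdhb was 2.79 ± 0.25 in controls against 3.37 ± 0.09, 3.45 ± 0.20 and 3.30 ± 0.24 (SD, n = 3). Its exposed pools did not overlap the controls, but limma's adjusted p was 0.11, 0.072 and 0.17. For sdhc, the other membrane anchor, the differences were 0.10, 0.36 and 0.28.

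In complex I, the NADH dehydrogenase, 2 of 35 genes rose under CuO and 3 under ZnO and NiO, and 0 fell, beside the same shares of all genes. The called genes include the accessory subunits ndufa12 and ndufa3. The probe for ndufa12 was dim in controls, at -7.37, -7.04 and -7.23, and well above background on only 2 of those arrays, so it met the filter through the exposed groups alone. It read -5.54, -4.45 and -5.11 under CuO, -4.57, -5.58 and -5.69 under ZnO, and -4.81, -5.05 and -4.41 under NiO. The measured differences were 2.18, 1.94 and 2.46 (SE 0.38, limma adjusted p 0.0039, 0.0067 and 0.0049), and rest on a control signal close to background. With probes required to be well above background on all arrays ndufa12 was not tested, and 1, 2 and 2 of 34 complex I genes rose.

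The accessory subunit ndufa3 had a level of 0.19, 0.63 and 0.56 in controls, 1.79, 1.74 and 1.49 under CuO, 1.65, 1.74 and 1.33 under ZnO, and 1.47, 1.24 and 1.23 under NiO. It too separated all exposed pools from all controls. The group means differed from control by 1.21, 1.11 and 0.85 (SE 0.24, limma adjusted p 0.0064, 0.0099 and 0.031). The NiO call was lost without any 1 of the NiO arrays, control 1 or control 3. Both ndufa12 and ndufa3 were measured by a single probe.

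The core subunit ndufs1, which carries iron-sulfur clusters on the electron path, was 1.43 ± 0.06 in controls and 2.14 ± 0.06, 2.35 ± 0.29 and 2.20 ± 0.27 in the CuO, ZnO and NiO pools (SD, n = 3). No exposed pool, the lowest being NiO 1 at 1.89, reached down to the highest control at 1.48. It rose under ZnO by 0.93 (limma adjusted p 0.022) and under NiO by 0.78 (adjusted p 0.046), and its CuO difference of 0.72 had an adjusted p of 0.057. The NiO call survived only when ZnO 2 or NiO 1 was the array left out, and the ZnO call was lost without ZnO 2, control 1 or control 3. Averaging the 2 tested probes, whose SD within groups was 0.20 and 1.58, ended both calls. Fitting each exposure with control alone did so too. The NiO call was also lost with slide as a block and without the filter on dim probes. Scaling to the 75th percentile over probes detected on all arrays ended it as well.

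The other complex I genes gave smaller or less certain differences. Of the catalytic core, ndufv1, which holds the NADH site, differed by 0.70, 0.64 and 0.74, with limma adjusted p of 0.43, 0.49 and 0.44 and 95% intervals of -0.74 to 2.14, -0.80 to 2.09 and -0.70 to 2.18. The mitochondrial acyl carrier protein ndufab1a had differences of -0.89, -0.37 and -0.65, with adjusted p of 0.30, 0.69 and 0.49. The accessory subunit ndufa1 had the highest differences among uncalled complex I genes, 1.48, 1.37 and 1.56, on widely spread replicates. The lowest differences of any complex I gene were -0.89, -0.81 and -1.68 under CuO, ZnO and NiO, and were not called. Over the 35 genes the median was 0.15 under CuO, 0.28 under ZnO and 0.23 under NiO, and centring on ribosomal protein genes turned the first and second of these to -0.14 and -0.01. It left 2, 2 and 1 genes higher and 1 lower under CuO, ndufs1 no longer passing under ZnO or NiO and ndufa3 no longer passing under NiO.

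In complex V, atp5if1b and atp5pf were called higher, 2, 2 and 1 of 17 genes under CuO, ZnO and NiO. These are 11.8%, 11.8% and 5.88% of the complex V genes, where 11.4%, 13.8% and 10.1% of all genes rose. Centring on ribosomal protein genes left 0, 0 and 1, with atp5if1b at 1.02 and 0.96 under CuO and ZnO (limma adjusted p 0.088 and 0.15) and atp5pf at 0.80 and 0.78 (adjusted p 0.12 and 0.13), and took the complex V median from 0.16, 0.28 and 0.19 to -0.13, -0.01 and 0.03. The gene atp5if1b encodes a paralog of the inhibitory factor that in mammals blocks ATP hydrolysis by the synthase when the proton gradient fails. Its level was 2.06, 1.78 and 2.66 in controls, 3.31, 3.45 and 3.69 under CuO, 3.26 and 3.67 on ZnO 2 and ZnO 3, and 3.56, 4.25 and 3.43 under NiO. The spot on ZnO 1 was an outlier and was left out, so the ZnO value has n = 2. Every exposed value exceeded every control, and the differences were 1.31, 1.29 and 1.58 (SE 0.33, 0.37 and 0.33, limma adjusted p 0.020, 0.033 and 0.013). The NiO call held with each array left out, whereas the CuO call was lost without CuO 2, CuO 3, control 1 or control 2 and the ZnO call without CuO 2, ZnO 2, ZnO 3, control 1 or control 2. A further atp5if1b probe differed by 0.77, 0.98 and 1.003, with adjusted p of 0.10, 0.049 and 0.049 over all probes. The paralog atp5if1a differed by 0.15, 0.31 and 0.19, with 95% intervals of -0.37 to 0.67, -0.21 to 0.83 and -0.33 to 0.71.

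The gene atp5pf encodes coupling factor 6, part of the stalk that holds the synthase head still. It read 0.48, 0.19 and 0.87 in controls, 1.42, 1.73 and 1.65 under CuO, 1.54, 1.74 and 1.47 under ZnO, and 1.04, 2.28 and 1.29 under NiO. The groups did not overlap, but the calls were marginal: 1.09 under CuO (SE 0.34, limma adjusted p 0.041) and 1.07 under ZnO (adjusted p 0.043), with 1.02 under NiO not passing (adjusted p 0.055). Leaving out 8 of the 12 arrays in turn ended the CuO call and 10 of them the ZnO call.

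The genes of the catalytic head and the rotor of the synthase did not pass. The alpha subunit atp5fa1 was 3.35 ± 0.27 in controls and 3.66 ± 0.11, 3.56 ± 0.41 and 3.64 ± 0.41 in the exposures (SD, n = 3). The catalytic beta subunit atp5f1b was 3.66 ± 0.14 against 4.00 ± 0.17, 4.11 ± 0.33 and 4.05 ± 0.23, and the c-ring subunit atp5mc1 was 2.87 ± 0.19 against 2.60 ± 0.38, 2.70 ± 0.35 and 2.93 ± 0.66. Limma's adjusted p lay between 0.23 and 0.91 for these genes, and the 95% intervals for atp5f1b ran from -0.24 to 0.90, -0.13 to 1.02 and -0.19 to 0.95.

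**Figure D2:**
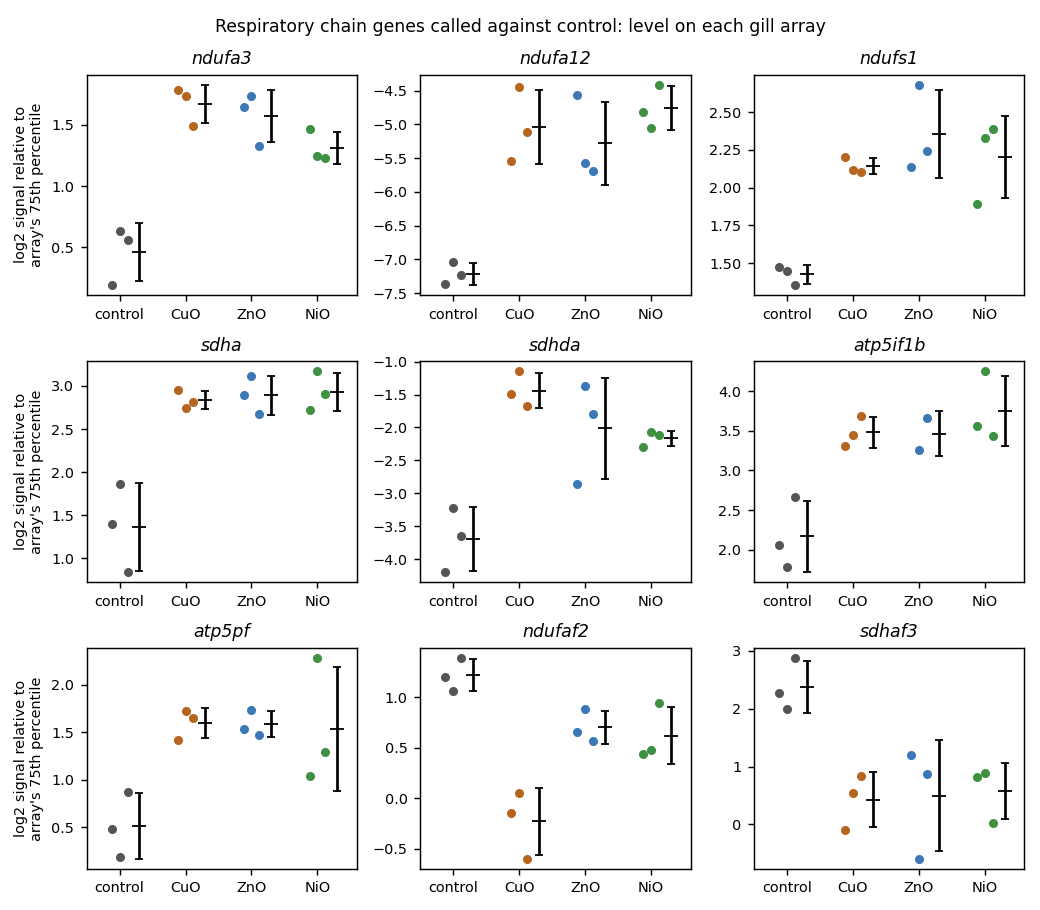
Level of each of the 9 members called against control in at least 1 exposure, as log2 signal relative to the array's 75th percentile, for control, CuO, ZnO and NiO. Points are the 3 pools of a group and bars are mean ± SD. In the panels of ndufa3, ndufa12, ndufs1, sdha, sdhda, atp5if1b and atp5pf all exposed points lie above all controls, in those of ndufaf2 and sdhaf3 below, and atp5if1b has 2 ZnO points.

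Of the 8 complex III genes, which encode the cytochrome bc1 complex, 0 passed limma's test in any exposure. At an unadjusted p under 0.05, 1, 2 and 3 passed under CuO, ZnO and NiO, where 40.2%, 39.3% and 36.6% of all genes did. With normexp background 1 complex III gene was called higher under NiO, and with slide as a block 1 under ZnO. The complex III differences were above 0 for 8, 8 and 7 genes under CuO, ZnO and NiO. Of all 12616 genes, 7938, 7611 and 7453 had differences above 0. For uqcrc1, a core protein of the complex, the controls were 1.59, 2.37 and 1.98. It read 2.56, 2.86 and 2.41 under CuO, 2.61, 2.88 and 2.74 under ZnO and 2.49, 2.98 and 2.76 under NiO. All exposed arrays lay above the highest control, CuO 3 only just. The group means differed from control by 0.63, 0.77 and 0.76, with limma adjusted p of 0.11, 0.064 and 0.072. Cytochrome c1, cyc1, which hands electrons to cytochrome c, differed by 0.45, 0.61 and 0.68 (adjusted p 0.26, 0.14 and 0.11). The Rieske iron-sulfur protein uqcrfs1 differed by 0.12, 0.23 and 0.28, with 95% intervals of -0.42 to 0.67, -0.31 to 0.78 and -0.27 to 0.82. The complex III median of 0.30, 0.47 and 0.51 became 0.0048, 0.16 and 0.35 with centring on ribosomal protein genes.

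Of the 17 complex IV genes, 0 passed limma's test in any exposure. At an unadjusted p under 0.05, 4, 2 and 2 passed under CuO, ZnO and NiO, where 40.2%, 39.3% and 36.6% of all genes did. The count of 0 depended on the processing. Averaging probes, centring on the median tested gene or normexp background each gave 1 complex IV gene called higher under CuO. Leaving out the 4 arrays low in eye transcripts gave 2 under CuO and 1 under ZnO. The common subunit cox4i1 was 3.43 ± 0.27 in controls and 3.88 ± 0.15, 3.93 ± 0.12 and 3.90 ± 0.50 in the CuO, ZnO and NiO pools (SD, n = 3), with limma adjusted p of 0.27, 0.24 and 0.27. Its paralog cox4i2, the lung isoform in mammals, read 1.28, 1.52 and 1.86 in controls, 2.65, 2.77 and 1.88 under CuO, 1.99, 2.82 and 2.15 under ZnO and 2.54, 2.01 and 2.49 under NiO. These groups did not overlap, CuO 3 lying nearest the controls, and the differences of 0.88, 0.77 and 0.80 had adjusted p of 0.083, 0.12 and 0.12. Of the subunits cox5aa, cox6a1 and cox7a2a, none differed by more than 0.51, and cox5aa by at most 0.15.

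Isoforms known from mammalian heart and skeletal muscle did not pass either. The gene cox7a1 differed by 0.99, 0.89 and 0.96 (limma adjusted p 0.074, 0.10 and 0.087) and cox6a2 by 1.1, 0.37 and 0.68 (adjusted p 0.093, 0.57 and 0.29). Over the same arrays the median of 27 skeletal muscle markers was 2.34 to 2.63 in controls and 2.69 to 4.37 in exposed pools. It was highest on NiO 2, which was also the array with the highest cox7a1, at 3.60, and cox6a2, at 4.50. The median over all members was highest on NiO 2 too, at 3.43. The median of 12 cardiac muscle markers was -2.42 to 0.10 in controls and -1.43 to 1.63 in exposed pools. It was highest on CuO 1 and read -0.90 on NiO 2. The part of muscle RNA in these values was not tested. In complex IV the highest CuO difference was that of ndufa4b, 1.70, on controls of 0.09, 1.72 and 2.18 and CuO pools of 2.64, 3.01 and 3.44 (adjusted p 0.065). Centring on ribosomal protein genes took the complex IV median from 0.18, 0.37 and 0.30 to -0.11, 0.08 and 0.13.

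The members that fell were assembly factors, proteins that help build a complex without staying in it. Of 7 tested, 2, 1 and 1 fell under CuO, ZnO and NiO (28.6%, 14.3% and 14.3%). Of all genes, 13.7%, 11.9% and 12.1% fell, so the ZnO and NiO shares lay near those of all genes. The gene sdhaf3, known in yeast and mammals for protecting the iron-sulfur subunit of succinate dehydrogenase during assembly, was 2.27, 2.00 and 2.87 in controls. It was -0.09, 0.55 and 0.83 under CuO, 1.21, -0.59 and 0.87 under ZnO and 0.82, 0.89 and 0.03 under NiO. Every exposed pool was below every control, and the gene fell by 1.95, 1.88 and 1.80 (SE 0.49, limma adjusted p 0.017, 0.021 and 0.028). The call was lost without CuO 1 or control 3 for CuO, without ZnO 2, control 1 or control 3 for ZnO, and without NiO 2, NiO 3, control 1 or control 3 for NiO.

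The complex I factor ndufaf2, which in mammals holds the place that ndufa12 later takes, fell under CuO. Its main probe read 1.2, 1.07 and 1.39 in controls and -0.14, 0.06 and -0.60 under CuO, a fall of 1.45 (SE 0.27, limma adjusted p 0.0046) that held with each array left out. Under ZnO it read 0.66, 0.89 and 0.56 and under NiO 0.44, 0.48 and 0.94, between the CuO pools and the controls, with differences of -0.52 (adjusted p 0.18) and -0.60 (adjusted p 0.13). A dimmer probe of ndufaf2 read -7.01, -4.28 and -6.29 in controls, -3.85, -4.36 and -4.44 under CuO, -2.76, -2.55 and -2.58 under ZnO and -3.34, -2.51 and -3.20 under NiO. It was higher under ZnO and NiO, and under CuO, where CuO 2 and CuO 3 lay below the highest control, it differed by 1.64 (adjusted p 0.074 over all probes), against the fall on the main probe. The mean of both probes differed by 0.10, 1.36 and 1.12, so the direction for ndufaf2 depends on the probe. With probes averaged the CuO call of ndufaf2 was lost. Of the 7 assembly factors 1 then fell in each exposure, and 1 rose under ZnO and 1 under NiO. Of the other 5 assembly factors, sdhaf4 differed by -1.04, -1.0 and -1.06 without passing.

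Over the 4 groups together, 7 members passed limma's F test, against 20.9% of all genes: ndufa12, ndufa3, sdha, sdhda, atp5if1b, ndufaf2 and sdhaf3. That number was 4 without CuO 1, 2 without control 1 and 0 without control 3. With probes required to be well above background on all arrays, where ndufa12 was not tested, it was 5 of 87. Of 11121 genes, 2501 then passed. Among the 3 exposures, whose doses differ, 0 members passed limma's F test, as did 0.0% of all genes. At an unadjusted p under 0.05, 1 member and 7.92% of all genes passed. The member was ndufaf2 (p 0.0098, adjusted p 0.47), lower under CuO than under ZnO by 0.93 and than under NiO by 0.85. Next in order were ndufaf5, ndufa4b, ndufaf7, cox7a2a and sdhda, with unadjusted p from 0.074 to 0.21.

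Probes of a gene did not always vary alike. Among 47 members with several tested probes, the SD of the most variable probe within groups was over 3 times that of the least variable in 12: atp5f1b, atp5fa1, cyc1, ndufa13, ndufa9a, ndufaf2, ndufb8, ndufs1, sdhb, sdhdb, uqcrc1 and uqcrfs1. In 10 of these the variable probe was highest on the same array of each group, control 1, CuO 3, ZnO 1 and NiO 2. The further probe of cyc1 read 1.60, -0.38 and 0.06 in controls, -0.14, 0.03 and 2.54 under CuO, 2.55, -0.15 and 0.22 under ZnO and -0.17, 3.27 and 0.01 under NiO, a range of 3.64, whereas the main probe ranged over 1.29. The further sdhb probe ranged over 4.41 and the main one over 1.17. Of those arrays, CuO 3, ZnO 1 and NiO 2 were also low in eye transcripts, and the part of either in the other was not tested.

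The variable probe represents its gene in 0 of the 12 cases, but genes with 1 probe offer no choice. The single probes of ndufb9, ndufs7 and ndufaf1 had an SD over 1 within groups, and each was high on CuO 3, ZnO 1 and NiO 2. The representing probe of ndufs8b, a gene with 2 tested probes, also had an SD over 1, the highest of any representing probe. Among the controls it was highest on control 2, and among the CuO pools on CuO 2. The other ndufs8b probe was more variable still. For ndufb9 the level ran from 0.44 to 3.72 and for ndufs7 from -1.23 to 2.25. Leaving out control 1, CuO 3, ZnO 1 and NiO 2 gave 6, 4 and 1 members called under CuO, ZnO and NiO. Of all genes, 3516, 2912 and 1354 were then called.

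**Figure D3:**
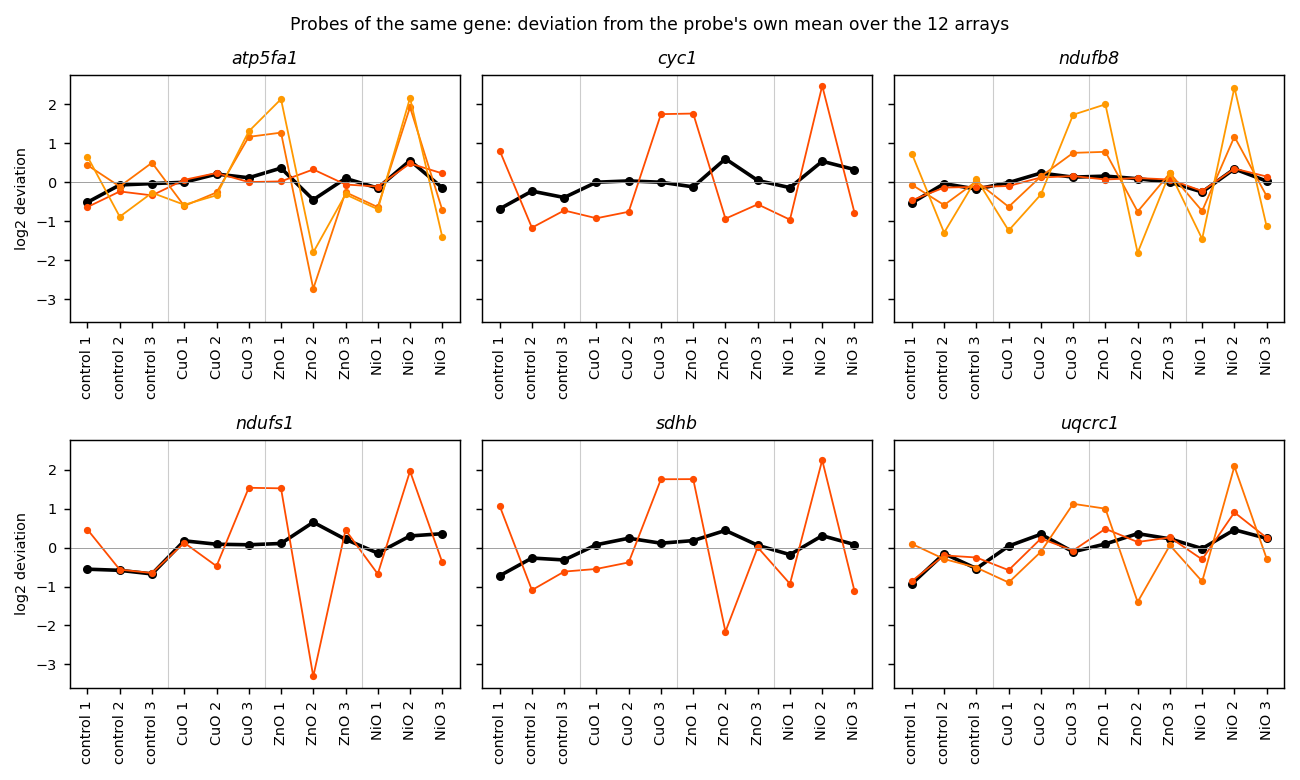
Log2 deviation of each probe from its own mean over the 12 arrays, for 6 genes with probes of unequal spread. The black line is the probe that represents the gene, orange lines are its other probes, and grey lines part the groups. In each panel at least 1 orange line peaks on CuO 3, ZnO 1 and NiO 2, where the black line stays within 1 unit of its mean.

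Other mitochondrial gene lists were counted in the same way, beside 11.4%, 13.8% and 10.1% of all genes that rose and 13.7%, 11.9% and 12.1% that fell under CuO, ZnO and NiO. Of 65 mitochondrial ribosomal protein genes, which translate the subunits encoded in mitochondrial DNA, 24 fell under CuO and 0 rose, 15 fell and 1 rose under ZnO, and 19 fell and 0 rose under NiO, so that 36.9%, 24.6% and 29.2% of the list were called. The list's median level was 2.06, 2.06 and 2.25 in controls, 0.95, 1.21 and 1.1 under CuO, 1.75, 1.3 and 1.52 under ZnO and 1.32, 1.40 and 1.31 under NiO. All exposed pools were below all controls. The large-subunit protein gene mrpl17 read 2.60, 2.50 and 2.73 in controls against 0.44, 0.62 and 0.46 under CuO, and differed by -2.10, -1.55 and -1.95 in the 3 exposures (SE 0.28, limma adjusted p 0.0017, 0.0052 and 0.0041). Among its neighbours in rank, mrpl1 fell by 2.29, 1.48 and 1.49. The counts that fell dropped to 14 without CuO 1 under CuO, and to 5 under ZnO and 7 under NiO without control 3. Leaving out the 4 arrays low in eye transcripts gave 12, 6 and 0. The median difference of the list was -0.75, -0.32 and -0.70, and it kept its sign with centring on ribosomal protein genes.

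Of 36 assembly factors outside the symbol rule, 8 fell and 1 rose under CuO, 5 fell and 1 rose under ZnO and 8 fell and 0 rose under NiO. The shares called either way were 25%, 16.7% and 22.2%, beside 25.1%, 25.7% and 22.2% of all genes. Falls alone, at 8, 5 and 8 of 36, stand beside 13.7%, 11.9% and 12.1% of all genes that fell. Under NiO every call was a fall, so 22.2% of the list fell, against 12.1% of all genes. The gene tmem186, a factor of the complex I membrane arm, was 1.72, 1.75 and 2.19 in controls. It dropped to -2.70, -2.21 and -1.82 under CuO, to -1.55, -2.23 and -1.54 under ZnO and to -0.43, -1.25 and -1.41 under NiO, where NiO 1 was the highest. These falls of 4.13, 3.66 and 2.92 (SE 0.36, limma adjusted p 0.00066, 0.00087 and 0.0032) held with each array left out. Its partner in mammals, acad9, fell by 2.21, 2.13 and 1.21, the NiO call being lost in 9 of 12 omissions. The complex IV factor coa8 fell by 1.61, 1.59 and 1.62. Higher were foxred1, a complex I factor, under CuO (1.94, adjusted p 0.023) and cox10, which makes the haem of complex IV, under ZnO (1.3, adjusted p 0.019). Without control 3 the falls numbered 2 under NiO and 3 under ZnO, and without CuO 1 they numbered 4 under CuO.

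In fuel supply, of 20 citric acid cycle and pyruvate genes 1, 4 and 1 rose and 0 fell, with medians of 0.59, 0.77 and 0.70. They include dldh, a dehydrogenase subunit shared by several of these enzymes, at 1.69 and 1.46 under CuO and ZnO, and the pyruvate carrier mpc1, at 1.18 and 1.13 under ZnO and NiO. Without control 3 the ZnO number was 0. Centring on ribosomal protein genes left 0 in every exposure, with medians of 0.30, 0.48 and 0.54. Of 25 carrier and uncoupling genes 2, 2 and 1 rose and 0 fell, and with that centring 1, 1 and 2 rose and 2, 0 and 0 fell. Among them ucp3, an uncoupling protein of the inner membrane best known from mammalian muscle, was 0.87, 0.67 and 0.18 in controls. It reached 2.32, 2.84 and 1.93 under CuO, 3.48, 3.46 and 2.90 under ZnO and 3.50, 4.70 and 4.02 under NiO. The differences of 1.79, 2.71 and 3.50 (SE 0.38, limma adjusted p 0.0082, 0.0021 and 0.0024) held with each array left out. The muscle creatine kinase ckmt2b rose under CuO by 0.99 and the outer membrane channel vdac3 under ZnO by 1.06, both calls being lost without any 1 of several arrays.

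Of 15 biogenesis genes 2, 3 and 3 rose and 1 fell in each exposure, or 20%, 26.7% and 26.7% called, near the shares of all genes. The mitofusin mfn1b, which joins mitochondria, rose by 0.90, 1.39 and 1.00, and gabpb2a, a subunit of a transcription factor known for activating respiratory chain genes in mammals, by 1.14, 1.39 and 1.15. A further mitofusin, mfn2, rose under NiO by 2.41. Without CuO 1 the CuO rises of this list numbered 0, and without control 3 the NiO rises numbered 0. The mitochondrial DNA exonuclease mgme1 fell by 2.97, 3.29 and 2.85 (SE 0.56, limma adjusted p 0.0051, 0.0041 and 0.0093). Of 18 genes of mobile electron carriers and of other routes into ubiquinone, 1, 3 and 2 rose and 1, 0 and 0 fell. The route from fatty acid and amino acid breakdown, etfdh, rose by 1.37, 1.32 and 1.52 and the sulfide route, sqor, by 2.37 and 1.64 under ZnO and NiO, while pdss2, which makes the ubiquinone tail, fell by 0.98 under CuO. Without ZnO 2 the ZnO rises numbered 1, without NiO 3 the NiO rises 0 and without CuO 1 the CuO rises 0. Among the calls named in these lists, those of mrpl1, mrpl17, tmem186, ucp3 and mgme1 in all exposures, acad9 under CuO and ZnO, dldh under CuO, and mfn1b, gabpb2a and sqor under ZnO held with each array left out in turn, and the others were lost without at least 1 array. Of 79 cytosolic ribosomal protein genes, 0 were called by limma in any exposure. At an unadjusted p under 0.05, 3, 0 and 1 passed under CuO, ZnO and NiO, where 40.2%, 39.3% and 36.6% of all genes did.

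**Figure D4:**
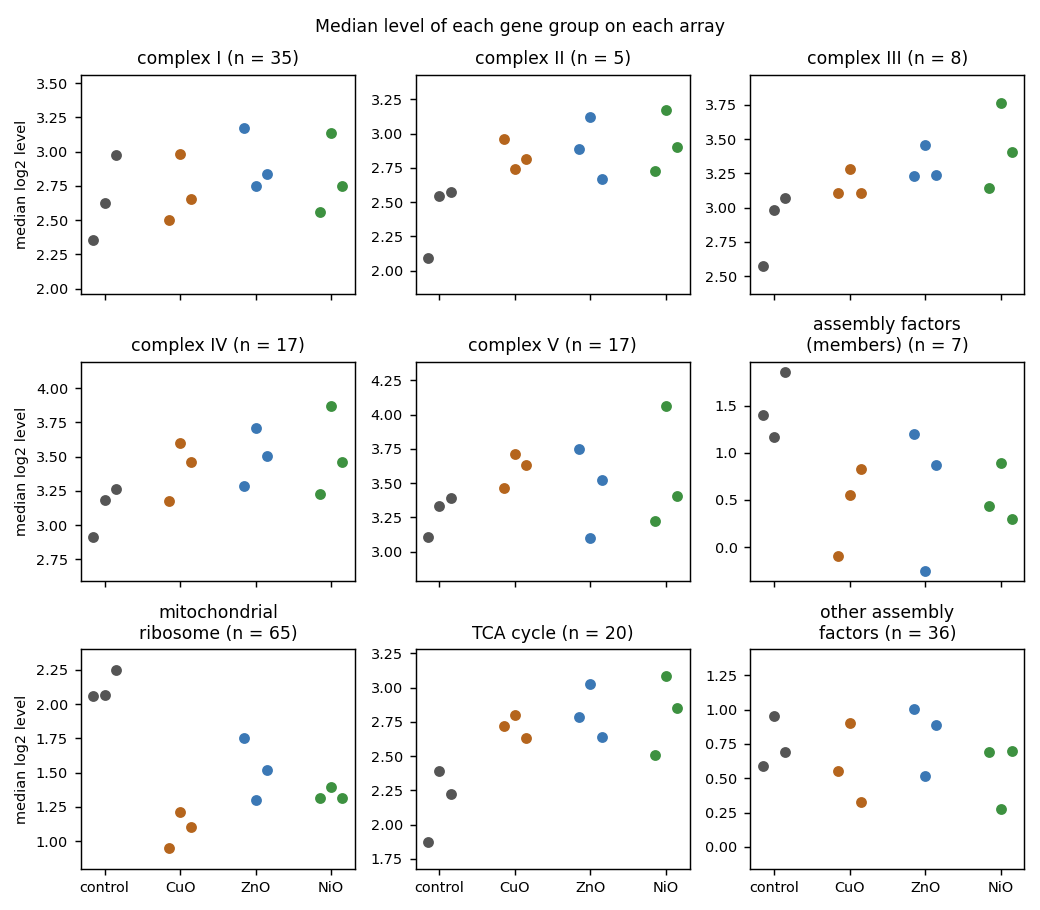
Median level of each gene list on each of the 12 arrays, as log2 signal relative to the array's 75th percentile, with 1 point per pool in the columns control, CuO, ZnO and NiO. The mitochondrial ribosome panel shows all controls at 2.06 or higher and all exposed pools at 1.75 or lower. The complex II, complex III and citric acid cycle panels show the exposed pools above the controls, and the complex I, IV and V panels overlap. For complex III the controls lie at 2.58 to 3.07 and the exposed pools at 3.10 to 3.76.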

How the data were processed

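Gill RNA of 12 zebrafish pools was measured on one-colour arrays. Per the file headers, the images were read with Feature Extraction 11.5.1.1, which made the background-subtracted processed intensity used here. The labels speak of a dye swap, but each file holds 1 channel. A table of intensities per probe was also deposited by the authors. The submitters' processing notes name MAS5, whose role is not given in the sources used here. Only 2 of its 12 columns matched the scanner file of the sample they name and 10 matched another sample's, each with at least 99.8% of probes within 0.1%. Which assignment is right could not be settled. The scanner files listed for each sample set the groups, and the table by its column names was an alternative. Its column medians ran from 145 to 583, with no log scale or centring seen.

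Control spots and outlier spots (0.0594 to 1.80% per array) were left out, spots of a probe were averaged, and each array's 75th percentile was subtracted from log2 of the intensity. The arrays' probes were named through RefSeq accessions in the GRCz12tu annotation: 26094 of 43603 probes had 1 symbol, 0 several and 17509 none. A gene needed 2 values in every group, and its brightest tested probe represents it. Probes were tested where well above background on all arrays of a group.

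All 12 arrays entered a fit of 4 group means in limma 3.58.1 (R 4.3.3), with moderated tests and Benjamini-Hochberg adjustment over all genes, two-sided. Probe-level p-values were adjusted over all probes tested. Intervals are 95%. The fit was also run on simulated data with independent noise in every gene and array. Those data held no slide, position or oocyte differences, so that run cannot check the calls against them. The labels call the pools biological replicates, and 3 arrays per group limit the precision.

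Replicate number equals slide, with 3 slides of 4 arrays, and a group always had the same position, so position and group cannot be told apart. Over 18 pairs of same-numbered arrays the correlation of deviations from group means ran from -0.58 to 0.48, and 7 exceeded 0.1, so the numbers were not taken to pair samples. The slide block was an alternative.

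The members, the lists and the tests were chosen with earlier results of these data known. Named were a set of well-known subunits, of which 1 is not reported here, up to 3 called members each way per complex, the 6 with the smallest p among exposures, and up to 2 called genes each way of each other list. The genes ndufa1, ndufs7, ndufb9, ndufaf1, ndufs8b, sdhdb, sdhc and sdhaf4 were named after their values were seen. The normexp alternative used median signal and background columns, because the files hold no mean signal column.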

Additional observations from a re-analysis of the deposited data

Results flagged for a closer look

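Probes that do not represent their gene gave calls where the gene itself was not called. These calls were picked because they passed, from 155 probes tested for the 89 members in each of 3 comparisons. The share called over all probes is not given here. For cox4i2, the complex IV isoform of mammalian lung, another probe was higher under CuO by 1.02 (limma adjusted p 0.027 over all probes), with 3 of 3 CuO pools above all controls, and the main probe differed by 0.88 in the same direction. Another probe of the Rieske protein gene uqcrfs1 was higher under ZnO by 1.15 (adjusted p 0.031), in 3 of 3 pools, while the main probe differed by 0.23. For ndufaf2 the dim probe was higher by 3.23 under ZnO (adjusted p 0.0066) and by 2.84 under NiO (adjusted p 0.015), against -0.52 and -0.60 on the main probe. Groups of 3 were not tested for outlying samples.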

How the results depend on the processing

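The numbers of members called were 8, 8 and 7 under CuO, ZnO and NiO, 7 over the 4 groups and 0 among the exposures. The deposited table, read by its column names, gave 0 in every comparison and 0 among all genes. Its columns and the scanner files disagree for 10 of 12 samples, and which assignment is right could not be settled. There atp5if1b, atp5pf and sdhaf3 turned to -0.093, -0.13 and 0.030 under CuO, and ndufa12 and sdha to -0.091 and -0.0044 under ZnO. Averaging probes turned ndufaf2 to 0.097, 1.36 and 1.12. Centring on ribosomal protein genes, which lowered differences by 0.29, 0.29 and 0.16, gave 5 members under ZnO and 4 over the 4 groups. Under CuO it gave 4 higher and 3 lower, with 606 of 2498 called genes higher instead of 1439 of 3162. Fitting ZnO and control alone gave 2. Of the alternatives added after seeing the data, leaving out the 4 arrays high on variable probes gave 4 under ZnO, 1 under NiO and 2 over the 4 groups. Leaving out the 4 arrays low in eye transcripts gave 4, 0 and 0. Under CuO these 2 omissions gave 6 and 9. Both fits used fewer arrays and kept NiO 1, the exposed array with oocyte transcripts, and NiO 3. The cause of the shifts was not tested. With single arrays left out, the number ran from 6 to 9 under CuO, 3 to 8 under ZnO, 3 to 7 under NiO and 0 to 8 over the 4 groups, and stayed 0 among exposures. With slide as a replicate block, 7, 7 and 6 members were called, 5 over the 4 groups, and the calls lost include atp5pf under CuO and atp5if1b and atp5pf under ZnO. The remaining alternatives kept the counts within 1.5 times. For single genes, 2088 values kept their side of the threshold, 136 lost it, 18 gained it, 72 moved by more than the replicate SD and 8 turned. Arrays give no counts, so dim probes such as ndufa12 and sdhda are limited by signal over background.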
